A study of Mus musculus with 9 samples.

Results

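The genes described here are 40 enzymes and enzyme regulators of central carbon metabolism. Of these, 16 belong to glycolysis, 6 act on lactate and pyruvate, 6 belong to the pentose phosphate pathway and 12 to the tricarboxylic acid (TCA) cycle. They were taken by gene symbol, and all 40 were found among the 38926 symbols of the count tables. All 40 also passed the filter on low counts, which left 12663 genes for testing.

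The RNA came from murine leukaemia cells that carry the MLL-AF9 fusion and had been through a tertiary transplantation. The groups were shRNA-1, shRNA-2 and a control hairpin, read 4 days after transduction, with 3 libraries each. Both shRNAs target Syncrip, which encodes an hnRNP-like protein that binds RNA, and every group carries MLL-AF9. The control hairpin is a scramble in the sample labels and a luciferase hairpin in the design text, and the 2 sources were not reconciled here. The design text states that each culture was transduced and processed by itself. The sources used here do not say whether cultures came from several mice, so the p-values measure the spread between cultures.

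Glycolysis splits glucose into pyruvate, and its committed step is the phosphorylation of fructose 6-phosphate by phosphofructokinase. The pentose phosphate pathway branches from glucose 6-phosphate and yields NADPH, which neutrophils use in their oxidative burst, and ribose 5-phosphate for nucleotides. Pyruvate is reduced to lactate or enters the mitochondrion, where pyruvate dehydrogenase makes the acetyl-CoA that the TCA cycle oxidises. Many glycolytic genes are known targets of the hypoxia-inducible factors, which bind the core letters ACGTG.

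Promoter sequence is shown for 5 members. Ldhb, Aldoc and Rpia had the largest absolute log2 fold changes with shRNA-2 among members whose call held under every setting that tested them, which was all 20 settings tried for Aldoc and Rpia and 19 for Ldhb, left out by a filter of 5 CPM. Ldha held the most matches to ACGTG among the members' first windows, and Hk2 and Pgk1 each held 2 matches apart from each other, of which those of Pgk1 lie close enough to the start to be shown. Each run is the 160 bases just upstream of the gene's start in its first RefSeq window on GRCm38.p6, read 5′ to 3′ on the gene's strand, and capitals mark ACGTG on either strand together with any CACGTG that contains it.
Ldhb, chr6:142507958-142508117, minus strand: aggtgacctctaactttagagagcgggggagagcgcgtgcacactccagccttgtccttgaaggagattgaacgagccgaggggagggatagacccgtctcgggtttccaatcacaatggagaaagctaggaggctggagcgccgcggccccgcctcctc
Aldoc, chr11:78322913-78323072, plus strand: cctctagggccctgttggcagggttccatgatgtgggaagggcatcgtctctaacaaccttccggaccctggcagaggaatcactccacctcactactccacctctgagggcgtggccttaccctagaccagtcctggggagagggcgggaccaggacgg
Rpia, chr6:70792176-70792335, minus strand: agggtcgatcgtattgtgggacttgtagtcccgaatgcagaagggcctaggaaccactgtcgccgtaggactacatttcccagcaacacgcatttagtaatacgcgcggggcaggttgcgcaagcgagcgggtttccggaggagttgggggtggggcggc
Ldha, chr7:46845644-46845803, plus strand: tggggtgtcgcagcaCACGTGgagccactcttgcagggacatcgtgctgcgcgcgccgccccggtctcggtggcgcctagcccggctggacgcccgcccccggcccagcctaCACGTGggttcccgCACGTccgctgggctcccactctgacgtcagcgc
Pgk1, chrX:106186940-106187099, plus strand: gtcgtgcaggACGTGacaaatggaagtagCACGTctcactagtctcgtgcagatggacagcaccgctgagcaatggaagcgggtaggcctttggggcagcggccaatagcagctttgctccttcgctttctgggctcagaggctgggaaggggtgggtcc
Ldhb, Aldoc and Rpia had no ACGTG in their first windows, and Ldha had 5 matches on the 2 strands, of which 4 lie in 2 copies of the palindrome CACGTG. Over 250 upstream bases, 11 of the 39 members with a window (28.2%) held ACGTG on either strand, against 16.6% of the first windows of 27025 genes. CACGTG, which contains ACGTG on both strands, stood in 2 of the 39 (5.13%), against 6.05% of all first windows. These are letter matches, and binding was not measured.

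The libraries held 9559638 to 19483923 counts. Syncrip stood at 15.9 to 20.1 CPM (counts per 1000000, here always scaled by TMM factors) with shRNA-1, at 46.3 to 63.2 CPM with shRNA-2 and at 207 to 241 CPM with the control hairpin. The share of ribosomal RNA is here a stand-in, the sum of mt-Rnr2, mt-Rnr1 (both mitochondrial) and Gm26924, and not a measured total. This share was 11.98 to 19.3% of counts with shRNA-1, 6.10 to 15.8% with shRNA-2 and 4.77 to 8.29% with the control hairpin. Mitochondrial counts also differed, at 3.71 to 9.67% with shRNA-1, 2.18 to 4.58% with shRNA-2 and 2.66 to 3.08% with the control hairpin. All 12 identity genes of leukaemic and myeloid cells were tested and summed to 5224 to 7575 CPM with shRNA-1, 4451 to 6763 CPM with shRNA-2 and 2999 to 3408 CPM in controls. They did not move as one, since 3 were called higher and 4 lower with shRNA-1, and 4 higher and 4 lower with shRNA-2. The 8 erythroid markers found summed to at most 1.85 CPM in any library and the 8 T and B cell markers to at most 1.66 CPM, with Alas2, Epor, Cd3g and Cd79a at 0 throughout. The summed level of 12 mature neutrophil markers was 29104 to 37328 CPM with shRNA-1, 35300 to 50201 CPM with shRNA-2 and 12202 to 12669 CPM in controls. Of these markers 11 were tested, and 11 were called higher with shRNA-1, while with shRNA-2 8 were called higher and 1, Ltf, lower. The macrophage list had 12 entries, of which Adgre1 and Emr1 name the same gene. With both entries counted, it summed to 180 to 322 CPM with shRNA-1, 750 to 1250 CPM with shRNA-2 and 166 to 217 CPM in controls. Over all genes the median log2 fold change of the shortest 2998 genes was 0.27 with shRNA-1 and 0.16 with shRNA-2, and that of the longest 2996 genes -0.19 and -0.15, while the members' median length was 4133 bases against 4010 for all genes. The marker levels moved with the hairpins, and their part in the results on the 40 genes was not tested. In bulk RNA, fewer cells of a type and less RNA per cell cannot be told apart.

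Across the 40 genes the hairpins gave similar numbers of calls, and 1 gene was called in the same direction with both. With shRNA-1, 4 members rose and 8 fell against the control hairpin (12 of 40, 30%), where 34.7% of all genes were called, 17.4% higher and 17.3% lower. With shRNA-2, 6 rose and 7 fell (13 of 40, 32.5%), where 48.7% of all genes were called, 24.4% higher and 24.2% lower. A gene was called when its p-value from edgeR's quasi-likelihood test, adjusted by the Benjamini-Hochberg method over 12663 genes, was under 0.05. Pdhb was the one member called in the same direction with both hairpins, lower in each, or 2.5% of the 40, where 18.8% of all genes were, 9.24% higher and 9.57% lower. Hk1 and Rpia were called in opposite directions by the 2 hairpins, where 2.66% of all genes were. Of the 40 members 18 were called with neither, as were 38.2% of all genes. The 2 comparisons share the 3 control libraries.

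These counts leaned on the scaling and on single libraries. Scaled by library totals without TMM, which put the median log2 fold change of all genes at -0.23 with shRNA-1 and -0.21 with shRNA-2, 1 member was higher and 15 lower with shRNA-1, and 2 were higher and 9 lower with shRNA-2. With the share of ribosomal RNA as covariate, 1 member, Pgk1, was called with shRNA-1 and 14 members with shRNA-2, where 10.7% and 45.7% of all genes were. For shRNA-1 the count was 4 without control replicate 3, 7 without shRNA-1 replicate 2 and 7 without shRNA-1 replicate 3, and for shRNA-2 it was 8 without control replicate 2. The share of all genes called with shRNA-1 fell as well in those fits, from 34.7% to 23.1%, 23.2% and 25.2%. For shRNA-2 it fell from 48.7% to 40.2%. The count for both hairpins was 0 when any shRNA-1 library was left out, and likewise for shRNA-2 replicate 3 and for control replicates 2 and 3, and it was 2, Cs and Pfkp, without control replicate 1. Of all genes, 16.5, 13.3 and 14.2% were called with both without shRNA-1 replicates 1, 2 and 3, and 16.0% without control replicate 1. Without the shRNA-1 and shRNA-2 libraries of highest ribosomal RNA share, a setting chosen after seeing the data, 10 members were called with shRNA-1 and 13 with shRNA-2. These counts stand without the share of all genes called in that fit, so they cannot be read against a background.

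Changes of the members were also small. The median absolute log2 fold change of the members was 0.26 with shRNA-1 and 0.23 with shRNA-2, against 0.39 and 0.50 over all genes. No member reached an absolute log2 fold change of 1 with shRNA-1, where 13.3% of all genes did. With shRNA-2 Ldhb, Aldoc, Rpia and Pgk1 did, where 21.5% of all genes did. In 4 members all 6 knockdown libraries lay on 1 side of all 3 controls (10% of the 40, against 27.2% of all genes). These were Pgk1, which was higher, and Pfkm, Pdha1 and Pdhb, which were lower. Taken 1 hairpin at a time, full separation from the control range was seen in 19 of the 40 members for shRNA-1, against 52.6% of all genes. For shRNA-2 it was seen in 15 members, against 55.4% of all genes. Between the hairpins, 21 members were fully separated, against 49.8% of all genes. Separation of 3 libraries from 3 was thus common across all genes, and the gene descriptions below are to be read with these shares.

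**Figure D1:**
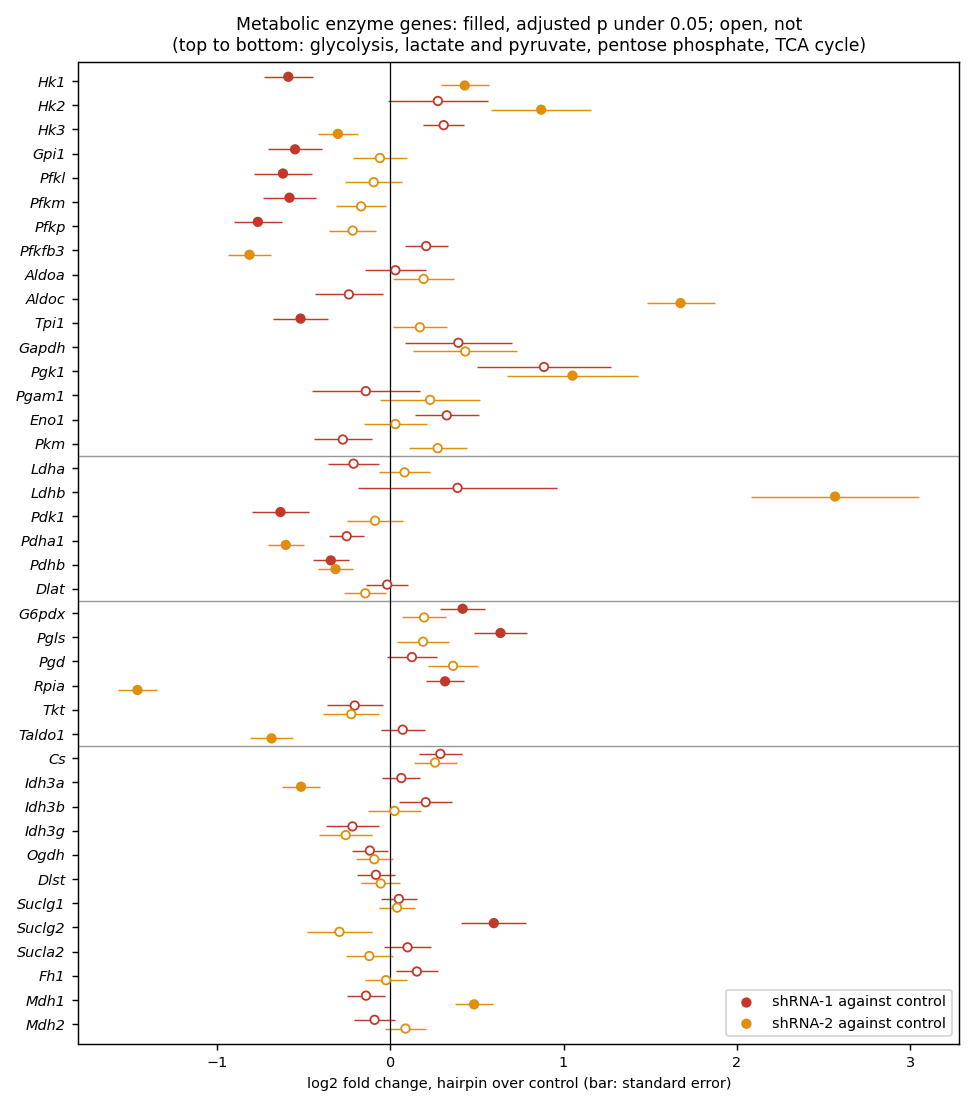
Log2 fold change of each of the 40 genes for shRNA-1 (red) and shRNA-2 (orange) against control, with bars of 1 standard error, 3 libraries per group. Filled points have an adjusted p under 0.05 and open points do not; the red filled points of glycolysis all lie below 0, and the filled orange points run from -1.46 for Rpia to 2.57 for Ldhb.

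In glycolysis the calls with shRNA-1 all pointed down in the main fit. Those with shRNA-2 went both ways, with a balance that depended on the scaling. With shRNA-1, 6 of the 16 glycolytic genes fell and 0 rose, where 17.3% of all genes fell and 17.4% rose, and the median log2 fold change was -0.19. With shRNA-2, 4 rose and 2 fell, where 24.4% of all genes rose and 24.2% fell, and the median was 0.18. When libraries were scaled by totals without TMM, Aldoc alone rose with shRNA-2 and 3 genes fell, Hk3, Pfkfb3 and Pfkp (log2 fold change -0.44, edgeR adjusted p = 0.0371), while 7 fell and 0 rose with shRNA-1. The medians over all genes were 0.023 with shRNA-1 and 0.0043 with shRNA-2. Those that fell with shRNA-1 were Hk1, Gpi1, Pfkl, Pfkm, Pfkp and Tpi1, which include all 3 phosphofructokinase genes. Under some other settings glycolytic genes were also called higher with shRNA-1. With DESeq2 Hk3 rose and 6 genes fell, and with no filter on low counts Pgk1 rose and 6 fell. With the share of ribosomal RNA as covariate Pgk1 rose and 0 fell. Of all genes, 35.7, 21.6 and 10.7% were called with shRNA-1 in these fits, in the order given.

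Pfkp encodes the platelet-type subunit of phosphofructokinase. It had 118, 108 and 99.7 CPM with shRNA-1 and 158, 161 and 158 CPM with shRNA-2, against 149, 200 and 204 CPM with the control hairpin. Every shRNA-1 library lay below every control, while shRNA-2 lay inside the control range. In log2 terms the change with shRNA-1 was -0.76 ± 0.14 (standard error; edgeR adjusted p = 0.00165), which is 41.1% lower. With shRNA-2 it was -0.22 ± 0.14 (edgeR adjusted p = 0.205).

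Pfkl, the liver-type subunit, averaged 74.7 ± 9.19 CPM with shRNA-1, 107 ± 12.1 CPM with shRNA-2 and 115 ± 23.5 CPM in controls (SD, n = 3 libraries each). Its log2 fold change was -0.62 ± 0.16 with shRNA-1 (edgeR adjusted p = 0.0134). Pfkm, the muscle-type subunit, averaged 6.995 ± 0.657 CPM with shRNA-1, 9.34 ± 0.50 CPM with shRNA-2 and 10.5 ± 0.48 CPM in controls. Its log2 fold change was -0.58 ± 0.15 with shRNA-1 (edgeR adjusted p = 0.0118). The proportions of the 3 genes overlapped between groups, and Pfkl held 37.5 to 40.4% of phosphofructokinase counts with shRNA-1, 36.0 to 41.3% with shRNA-2 and 35.7 to 39.0% in controls. With shRNA-2 none of the 3 was called.

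Gpi1, glucose-6-phosphate isomerase, averaged 599 ± 60.9 CPM with shRNA-1, 841 ± 142 CPM with shRNA-2 and 876 ± 74.0 CPM in controls. With shRNA-1 the log2 fold change was -0.55 ± 0.15 (edgeR adjusted p = 0.0173). Tpi1, triosephosphate isomerase, had 208, 215 and 163 CPM with shRNA-1, 309, 323 and 311 CPM with shRNA-2 and 227, 333 and 278 CPM in controls. The shRNA-1 libraries were below all 6 others, and the control libraries were widely spread. Its log2 fold change with shRNA-1 was -0.52 ± 0.16 (edgeR adjusted p = 0.0238).

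Of these shRNA-1 calls, 3 were lost when certain single libraries were left out. Gpi1 was no longer called without shRNA-1 replicate 1 (edgeR adjusted p = 0.0680) or control replicate 3 (0.0699). Pfkl was not called without shRNA-1 replicate 3 (edgeR adjusted p = 0.0590) and likewise without control replicate 2 (0.0627) and without control replicate 3 (0.0520). Leaving out shRNA-1 replicate 3 ended the call of Tpi1 (edgeR adjusted p = 0.101), as did leaving out control replicate 2 (0.110) and control replicate 3 (0.0647). Hk1, Pfkm and Pfkp held without any single library. With the share of ribosomal RNA as covariate none of the 6 was called, with edgeR adjusted p-values of 0.300 for Hk1, 0.0830 for Gpi1, 0.212 for Pfkl, 0.188 for Pfkm, 0.0518 for Pfkp and 0.194 for Tpi1. The log2 fold changes in that fit were -0.28 for Hk1, -0.66 for Gpi1, -0.46 for Pfkl, -0.46 for Pfkm, -0.67 for Pfkp and -0.47 for Tpi1, so that Hk1 moved nearest to 0 and Gpi1 lay further from 0 than without the covariate. The same fit called 10.7% of all genes with shRNA-1, and it could not cleanly separate the share from the hairpin.

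The hexokinases, which trap glucose in the cell as glucose 6-phosphate, moved in different directions with the hairpins. Hk1 had 106, 119 and 112 CPM with shRNA-1, 257, 181 and 243 CPM with shRNA-2 and 157, 171 and 178 CPM with the control hairpin. The shRNA-1 libraries lay below all controls and the shRNA-2 libraries above them. Relative to controls, the log2 fold change was -0.59 ± 0.14 with shRNA-1 (edgeR adjusted p = 0.00782) and 0.43 ± 0.14 with shRNA-2 (edgeR adjusted p = 0.0235).

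Hk3, the hexokinase typical of granulocytes, ran the other way. It had 171, 192 and 195 CPM with shRNA-1, 113, 136 and 117 CPM with shRNA-2 and 156, 146 and 149 CPM in controls. All 3 shRNA-1 libraries were above the controls and all 3 shRNA-2 libraries below. With shRNA-2 it fell by 0.30 ± 0.12 on the log2 scale (edgeR adjusted p = 0.0493). With shRNA-1 the log2 fold change was 0.31 ± 0.12 (edgeR adjusted p = 0.0589).

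Hk2, the inducible hexokinase, had 404, 175 and 189 CPM with shRNA-2 and 196, 185 and 127 CPM with shRNA-1, against 166, 139 and 115 CPM in controls. A single shRNA-2 library stood far above the rest. With shRNA-2 the log2 fold change was 0.87 ± 0.29 (edgeR adjusted p = 0.0262), and without shRNA-2 replicate 1 it was 0.39 (edgeR adjusted p = 0.0985). The Hk2 call was also lost without control replicate 2 (0.0690) and without control replicate 3 (0.0932). The Hk1 call with shRNA-2 ended without shRNA-2 replicate 1 (edgeR adjusted p = 0.0573) and without shRNA-2 replicate 3 (0.0771), and also without control replicate 1 (0.0726) and without control replicate 2 (0.0588). The Hk3 call with shRNA-2 held only when shRNA-2 replicate 2 was the library left out, and its largest edgeR adjusted p was 0.130, without shRNA-2 replicate 3. Scaled by library totals without TMM, Hk1 (edgeR adjusted p = 0.317) and Hk2 (0.0956) were not called with shRNA-2.

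As shares of the 3 hexokinase genes' counts in the same library, Hk1 held 22.4 to 25.7% with shRNA-1, 33.2 to 44.3% with shRNA-2 and 32.8 to 40.2% in controls. Hk3 held 36.2 to 45.004% with shRNA-1, 14.6 to 27.7% with shRNA-2 and 32.0 to 33.7% in controls. The Hk3 shares of the 3 groups did not overlap, and the Hk1 share was lowest with shRNA-1. Shares do not depend on how libraries are scaled, but they say only that the members changed unequally.

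**Figure D2:**
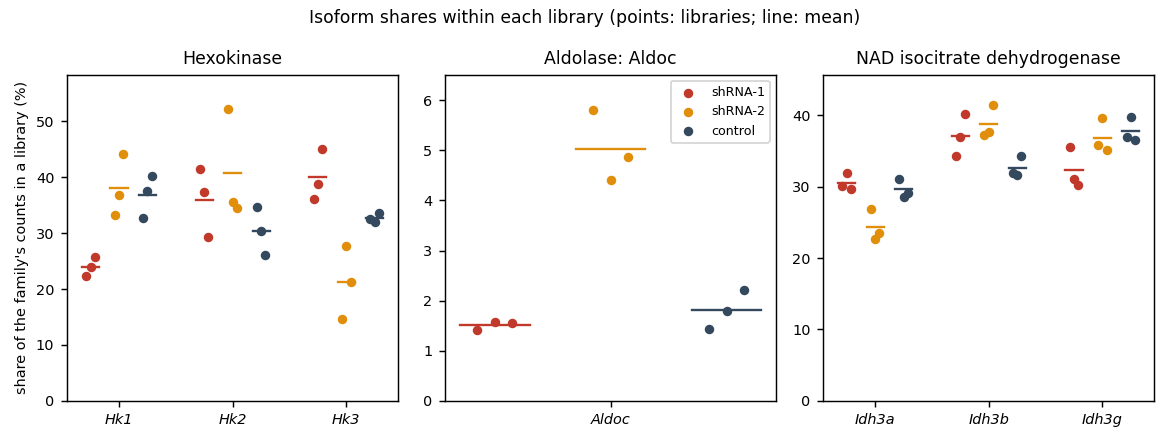
Share (%) of each library's counts within a gene family, for the 3 hexokinases, for Aldoc among Aldoa and Aldoc, and for the 3 subunits of NAD isocitrate dehydrogenase; points are libraries and lines means of 3. Aldoc lies at 4.41 to 5.81% with shRNA-2, above all other libraries, and the Idh3a share is lowest with shRNA-2.

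Aldoc and Pfkfb3 were the glycolytic genes called with shRNA-2 under every setting tried. Aldoc encodes aldolase C, an aldolase best known from brain, and lies at chr11:78322968-78327781 on GRCm38. It had 110, 121 and 111 CPM with shRNA-2 and 27.1, 35.7 and 27.7 CPM with shRNA-1, against 24.2, 39.1 and 43.7 CPM with the control hairpin. The shRNA-2 libraries stood far above the other 6, which overlapped. In log2 terms the change with shRNA-2 was 1.68 ± 0.20 (edgeR adjusted p = 4.06e-05), or 3.19-fold. With shRNA-1 it was -0.24 ± 0.20 (edgeR adjusted p = 0.370). Aldoa, the main aldolase, averaged 1958 ± 257 CPM with shRNA-1, 2192 ± 418.5 CPM with shRNA-2 and 1918 ± 235 CPM in controls and was called with neither. Aldoc made up 4.41 to 5.81% of the counts of Aldoa and Aldoc with shRNA-2, 1.42 to 1.57% with shRNA-1 and 1.43 to 2.21% in controls.

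Pfkfb3 encodes the enzyme that makes fructose 2,6-bisphosphate, the activator of phosphofructokinase. It had 42.0, 35.2 and 34.4 CPM with shRNA-2 and 75.0, 83.9 and 67.4 CPM with shRNA-1, against 66.1, 65.1 and 64.8 CPM in controls. The 3 groups did not overlap. Measured on the log2 scale, the fold change was -0.81 ± 0.13 with shRNA-2 (edgeR adjusted p = 2.68e-04), which is 43.1% lower, and 0.21 ± 0.12 with shRNA-1 (edgeR adjusted p = 0.213).

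**Figure D3:**
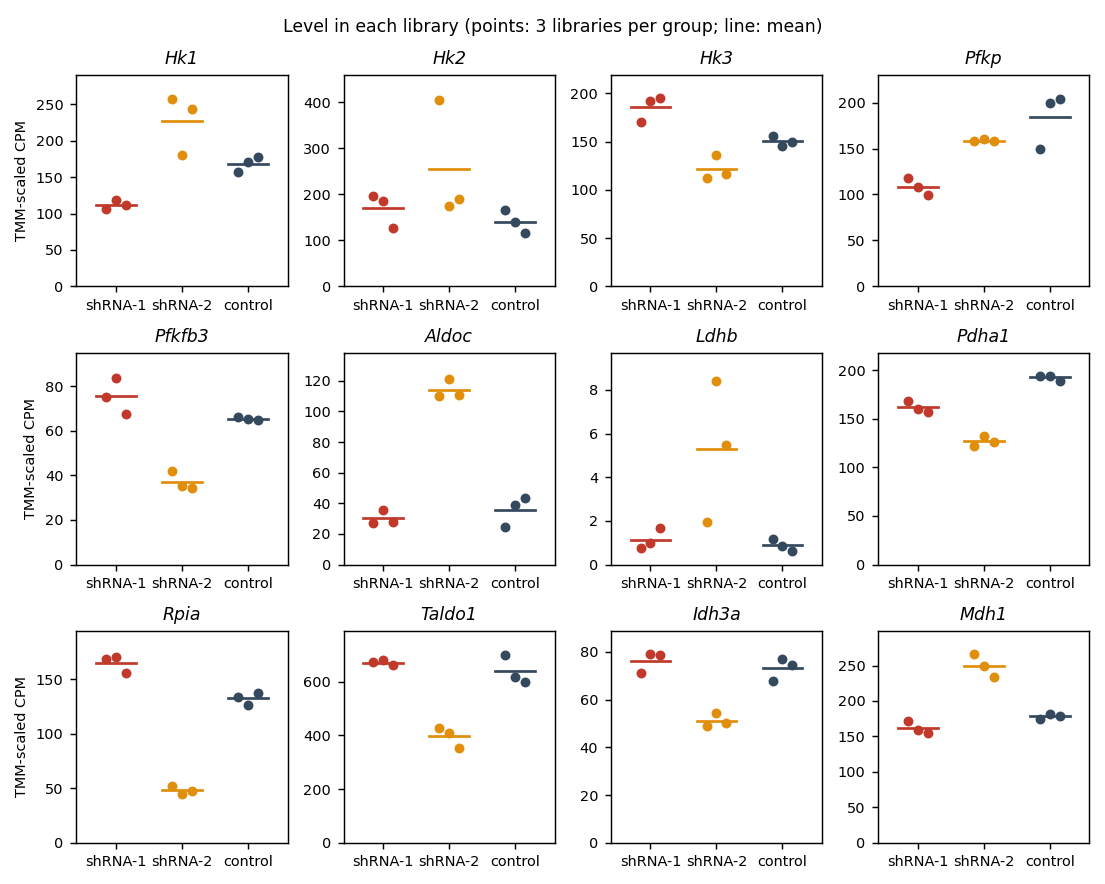
TMM-scaled CPM of 12 genes in each of the 9 libraries, with shRNA-1, shRNA-2 and control from left to right; points are libraries and lines means of 3. Rpia, Taldo1, Idh3a and Pfkfb3 lie below both other groups in all 3 shRNA-2 libraries, and Aldoc, Ldhb and Mdh1 lie above them.

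The later steps of glycolysis include genes that share sequence with many copies in the genome. Gapdh averaged 3.05 ± 0.90 CPM with shRNA-1, 3.09 ± 0.48 CPM with shRNA-2 and 2.32 ± 0.81 CPM in controls. Over the 9 libraries Gapdh held 362 counts while 83 near-identical copies listed in the tables held 12627. Pgk1 held 1437 counts against 4603 for its retrocopy Pgk1-rs7, Pgam1 held 181 against 1202 for Pgam1-ps2, and Eno1 held 4163 against 1403 for Gm4735. The sources used here do not give how multi-mapping reads were counted, so the values of these 4 genes are uncertain. Reads of overlapping genes on the opposite strand may also be held by Gpi1 (741 shared exon bases), Pfkp (748), Pdha1 (603) and G6pdx (418).

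Within that limit, Pgk1, phosphoglycerate kinase, had 16.5, 13.5 and 7.66 CPM with shRNA-1, 24.3, 7.73 and 9.78 CPM with shRNA-2 and 6.34, 7.16 and 6.81 CPM in controls. All 6 knockdown libraries were above all controls, some by little. Relative to controls, the log2 fold change was 0.89 ± 0.39 with shRNA-1 (edgeR adjusted p = 0.0956) and 1.05 ± 0.38 with shRNA-2 (edgeR adjusted p = 0.0376). Without shRNA-2 replicate 1 the log2 fold change with shRNA-2 was 0.39 (edgeR adjusted p = 0.244), and the call was also lost without shRNA-1 replicate 2 (0.0520) and without each control in turn (0.0980 for replicate 1, 0.0786 for replicate 2 and 0.0863 for replicate 3). Scaled by library totals without TMM it was not called either (edgeR adjusted p = 0.108). Eno1 and Pgam1 were called in no comparison.

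Pkm, pyruvate kinase, averaged 850 ± 140 CPM with shRNA-1, 1243 ± 111 CPM with shRNA-2 and 1028 ± 165 CPM in controls. Its log2 fold change was -0.27 ± 0.17 with shRNA-1 (edgeR adjusted p = 0.223) and 0.27 ± 0.17 with shRNA-2 (edgeR adjusted p = 0.194). Summed over the 16 glycolytic genes, the level was 4193, 4978 and 4083 CPM with shRNA-1, 5173, 6057 and 5778 CPM with shRNA-2 and 4398, 5425 and 5208 CPM in controls. The sums of each hairpin overlapped those of the controls, and the mean log2 sum of shRNA-2 minus that of controls was 0.18 with TMM and -0.04 by library totals.

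**Figure D4:**
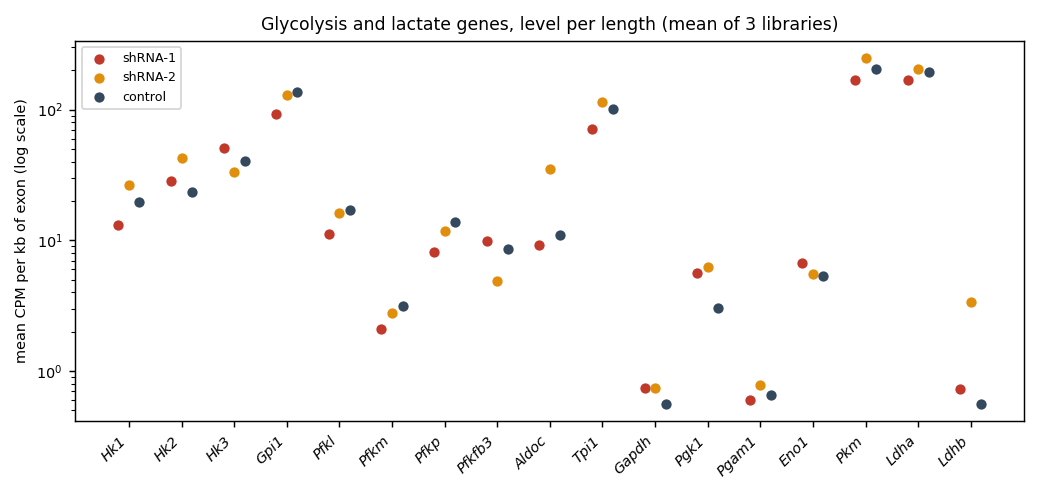
Mean level of the glycolytic genes with a single annotated length, and of Ldha and Ldhb, in CPM per kb of exon on a log scale, with shRNA-1, shRNA-2 and control from left to right for each gene; each point is a mean of 3 libraries. Pkm and Ldha are the highest, at 170 and 168 CPM per kb with shRNA-1, and Gapdh, Pgam1 and Ldhb lie lowest in controls, at 0.561, 0.660 and 0.562 CPM per kb.

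Among genes around lactate and pyruvate, Ldhb rose with shRNA-2, Pdha1 fell with shRNA-2, Pdk1 fell with shRNA-1 and Pdhb fell with both. With shRNA-1, 0 of 6 rose and 2 fell, where 17.4% of all genes rose and 17.3% fell. With shRNA-2, 1 rose and 2 fell, where 24.4% of all genes rose and 24.2% fell. Ldha, the subunit that favours lactate formation, averaged 557 ± 36.6 CPM with shRNA-1, 682 ± 110 CPM with shRNA-2 and 644 ± 59.4 CPM in controls, and was called with neither. Ldha also carried the most ACGTG matches among the members.

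Ldhb, the subunit that favours the return of lactate to pyruvate, lies at chr6:142490249-142507957 on GRCm38. It had 1.96, 8.43 and 5.46 CPM with shRNA-2 and 0.769, 0.998 and 1.66 CPM with shRNA-1, against 1.17, 0.862 and 0.619 CPM with the control hairpin. All 3 shRNA-2 libraries were above the other 6, with a wide spread among them and few counts behind the low values. With shRNA-2 the log2 fold change was 2.57 ± 0.49 (edgeR adjusted p = 0.00109), or 5.92-fold, the largest of the 40 genes. With shRNA-1 it was 0.39 ± 0.57 (edgeR adjusted p = 0.634). Even so Ldhb made up 0.35 to 1.09% of lactate dehydrogenase counts with shRNA-2 and 0.13 to 0.32% with shRNA-1, against 0.093 to 0.20% in controls.

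Pdhb encodes the beta subunit of the E1 component of pyruvate dehydrogenase. It had 78.6, 75.9 and 76.0 CPM with shRNA-1, 79.9, 75.6 and 79.3 CPM with shRNA-2 and 103, 94.1 and 94.8 CPM in controls. All 6 knockdown libraries lay below all controls. Relative to controls, the log2 fold change was -0.34 ± 0.10 with shRNA-1 (edgeR adjusted p = 0.0225) and -0.32 ± 0.10 with shRNA-2 (edgeR adjusted p = 0.0230), so 21.2% and 19.7% lower. The call with shRNA-1 ended without any 1 of its own 3 libraries and without control replicate 1 or 3, the largest edgeR adjusted p being 0.0815 without shRNA-1 replicate 2. The call with shRNA-2 was lost without shRNA-2 replicate 3 or any of the controls, the largest edgeR adjusted p being 0.0924 without control replicate 1.

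Pdha1, the alpha subunit of the same component, had 122, 133 and 126 CPM with shRNA-2 and 169, 160 and 157 CPM with shRNA-1, against 195, 194 and 189 CPM in controls. The 3 groups did not overlap, and controls were highest. Its log2 fold change was -0.60 ± 0.10 with shRNA-2 (edgeR adjusted p = 5.38e-04), or 34.2% lower, and -0.25 ± 0.10 with shRNA-1 (edgeR adjusted p = 0.0774). Dlat, the E2 component, averaged 38.1 ± 1.68 CPM with shRNA-1, 34.9 ± 3.50 CPM with shRNA-2 and 38.6 ± 3.24 CPM in controls and was called with neither.

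Pdk1 encodes a kinase that switches pyruvate dehydrogenase off. It had 64.6, 46.6 and 39.5 CPM with shRNA-1, 78.8, 71.9 and 68.9 CPM with shRNA-2 and 72.3, 76.7 and 84.3 CPM in controls. In log2 terms the change with shRNA-1 was -0.63 ± 0.16 (edgeR adjusted p = 0.0118). The shRNA-1 libraries lay below all others, and the call was lost without shRNA-1 replicate 2 (edgeR adjusted p = 0.0544) or control replicate 3 (0.0529). With the share of ribosomal RNA as covariate neither Pdk1 (edgeR adjusted p = 0.234) nor Pdhb (0.171) was called for shRNA-1.

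In the pentose phosphate pathway 3 of 6 genes rose and 0 fell with shRNA-1, where 17.4% of all genes rose and 17.3% fell. With shRNA-2, 0 rose and 2 fell, where 24.4% of all genes rose and 24.2% fell. The genes that rose with shRNA-1 included G6pdx and Pgls, the first enzymes of the oxidative branch, which makes NADPH. The genes that fell with shRNA-2 were Rpia and Taldo1 of the non-oxidative branch, which links pentoses to glycolysis.

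Rpia encodes ribose-5-phosphate isomerase, which makes ribose 5-phosphate, and lies at chr6:70765720-70792232 on GRCm38. It had 52.0, 45.01 and 47.8 CPM with shRNA-2 and 169, 171 and 156 CPM with shRNA-1, against 134, 127 and 138 CPM with the control hairpin. The 3 groups were apart, with shRNA-2 far below and shRNA-1 above the controls. In log2 terms the change with shRNA-2 was -1.46 ± 0.11 (edgeR adjusted p = 2.38e-06), or 63.6% lower, the lowest of the 40 genes. With shRNA-1 it was 0.32 ± 0.11 (edgeR adjusted p = 0.0392), and that call ended without any 1 of the control or shRNA-1 libraries and without shRNA-2 replicate 3, the largest edgeR adjusted p being 0.142 without control replicate 2.

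Taldo1, transaldolase, had 429, 411 and 352 CPM with shRNA-2 and 672, 681 and 661 CPM with shRNA-1, against 700, 617.5 and 599 CPM in controls. All 3 shRNA-2 libraries lay below the other 6, and shRNA-1 lay within the controls. Relative to controls, the log2 fold change was -0.68 ± 0.13 with shRNA-2 (edgeR adjusted p = 9.24e-04), or 37.8% lower, and 0.07 ± 0.13 with shRNA-1 (edgeR adjusted p = 0.694). Tkt, transketolase, averaged 657 ± 57.1 CPM with shRNA-1, 648 ± 84.4 CPM with shRNA-2 and 758 ± 145 CPM in controls and was called with neither.

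G6pdx, glucose-6-phosphate dehydrogenase, had 133, 168 and 173 CPM with shRNA-1, 125, 140 and 143 CPM with shRNA-2 and 115, 127 and 114 CPM in controls. With shRNA-1 the log2 fold change was 0.42 ± 0.13 (edgeR adjusted p = 0.0252). Pgls, 6-phosphogluconolactonase, had 294, 258 and 273 CPM with shRNA-1, 194, 239 and 172 CPM with shRNA-2 and 181, 200 and 150 CPM in controls. The shRNA-1 libraries of both genes lay above all controls. The log2 fold change of Pgls with shRNA-1 was 0.64 ± 0.15 (edgeR adjusted p = 0.00737), or 1.55-fold.

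The G6pdx call ended without shRNA-1 replicate 2 (edgeR adjusted p = 0.0977) and without shRNA-1 replicate 3 (0.101), and also without control replicate 1 (0.0646) and without control replicate 3 (0.0802). Scaled by library totals without TMM, neither G6pdx (edgeR adjusted p = 0.339) nor Rpia (0.729) was called higher with shRNA-1, and Pgls still was. With the share of ribosomal RNA as covariate the edgeR adjusted p for shRNA-1 was 0.332 for G6pdx, 0.231 for Pgls and 0.0501 for Rpia. Exons of Pgls overlap those of Fam129c over 776 bases of the same strand, so reads there could come from either gene. Pgd, 6-phosphogluconate dehydrogenase, averaged 1217 ± 49.7 CPM with shRNA-1, 1435 ± 107 CPM with shRNA-2 and 1116 ± 157 CPM in controls, and its log2 fold change with shRNA-2 was 0.36 ± 0.14 (edgeR adjusted p = 0.0527).

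In the TCA cycle 9 of 12 genes were called with neither hairpin, as were 38.2% of all genes. Suclg2 rose with shRNA-1, while Mdh1 rose and Idh3a fell with shRNA-2. Summed over the 12 genes, the level was 1745, 1683 and 1714 CPM with shRNA-1, 1820, 1876 and 1715 CPM with shRNA-2 and 1749, 1719 and 1654 CPM in controls. The summed levels of the groups overlapped.

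Idh3a encodes the catalytic subunit of NAD-dependent isocitrate dehydrogenase. It had 48.8, 54.4 and 50.2 CPM with shRNA-2 and 71.3, 79.2 and 78.5 CPM with shRNA-1, against 67.9, 76.9 and 74.4 CPM in controls. The shRNA-2 libraries lay below all others. Measured on the log2 scale, the fold change was -0.51 ± 0.11 with shRNA-2 (edgeR adjusted p = 0.00241), or 30.01% lower, and 0.06 ± 0.11 with shRNA-1 (edgeR adjusted p = 0.689). Its partner subunits Idh3b and Idh3g were called with neither. As a share of the 3 subunits' counts, Idh3a held 22.7 to 26.9% with shRNA-2, 29.6 to 31.9% with shRNA-1 and 28.6 to 31.1% in controls.

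Mdh1, cytosolic malate dehydrogenase of the malate-aspartate shuttle, had 266, 249 and 234 CPM with shRNA-2 and 171, 160 and 155 CPM with shRNA-1, against 174, 182 and 179 CPM in controls. The shRNA-2 libraries lay above all others. With shRNA-2 the log2 fold change was 0.48 ± 0.11 (edgeR adjusted p = 0.00301), or 1.40-fold, and scaled by library totals without TMM it was 0.27 (edgeR adjusted p = 0.104). Mdh2, the mitochondrial enzyme, averaged 572 ± 27.0 CPM with shRNA-1, 648 ± 41.6 CPM with shRNA-2 and 609 ± 28.6 CPM in controls and was called with neither.

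Suclg2, the GDP-forming beta subunit of succinate-CoA ligase, had 19.4, 23.2 and 13.8 CPM with shRNA-1, 11.4, 8.97 and 10.1 CPM with shRNA-2 and 13.0, 13.3 and 11.2 CPM in controls. The shRNA-1 libraries were above the controls, the lowest of them by little. In log2 terms the change with shRNA-1 was 0.60 ± 0.19 (edgeR adjusted p = 0.0275). That call was lost without shRNA-1 replicates 1 or 2 or any of the controls, the largest edgeR adjusted p being 0.146 without shRNA-1 replicate 2, where the log2 fold change was 0.41. It was also lost when libraries were scaled by totals without TMM (edgeR adjusted p = 0.219) or with the share of ribosomal RNA as covariate (0.0547).

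The other cycle genes, Cs, Idh3b, Idh3g, Ogdh, Dlst, Suclg1, Sucla2, Fh1 and Mdh2, had log2 fold changes between -0.22 and 0.29 with shRNA-1 and between -0.26 and 0.26 with shRNA-2. Citrate synthase, Cs, was the highest of these with both, with 0.29 ± 0.12 for shRNA-1 (edgeR adjusted p = 0.0912) and 0.26 ± 0.12 for shRNA-2 (edgeR adjusted p = 0.104). Suclg1, the shared alpha subunit of succinate-CoA ligase, averaged 185 ± 5.28 CPM with shRNA-1, 184 ± 5.89 CPM with shRNA-2 and 179 ± 4.91 CPM in controls.

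Set against each other, the hairpins differed at 19 of the 40 genes. Between shRNA-1 and shRNA-2, 8 members were higher and 11 lower with shRNA-1 (47.5%), where 41.0% of all genes were called, 19.7% higher and 21.3% lower. In glycolysis 2 genes were higher and 8 lower with shRNA-1, and in the pentose phosphate pathway 3 were higher and 0 lower. Rpia differed by 1.77 ± 0.11 on the log2 scale (edgeR adjusted p = 1.25e-06), Aldoc by -1.91 ± 0.20 (edgeR adjusted p = 2.61e-05), Pfkfb3 by 1.02 ± 0.13 (edgeR adjusted p = 8.31e-05) and Hk1 by -1.02 ± 0.14 (edgeR adjusted p = 1.87e-04). Ldhb differed by -2.18 ± 0.50 (edgeR adjusted p = 0.00485).

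Genes that passed against the control with 1 hairpin were tested for the difference itself here. Both tests use the same libraries of that hairpin, so a pass in both is partly built in and is not a separate result. Of the 6 glycolytic falls with shRNA-1, all 6 were also lower with shRNA-1 than with shRNA-2, Pfkp by -0.55 ± 0.14 (edgeR adjusted p = 0.00733) and Tpi1 by -0.69 ± 0.16 (edgeR adjusted p = 0.00437). The shRNA-2 changes were likewise present between the hairpins in Taldo1, at 0.76 ± 0.13 (edgeR adjusted p = 6.42e-04), Idh3a, at 0.58 ± 0.11 (0.00156), and Mdh1, at -0.62 ± 0.11 (8.12e-04), as was that of Suclg2 with shRNA-1, at 0.89 ± 0.19 (edgeR adjusted p = 0.00305). Pkm differed by -0.55 ± 0.17 (edgeR adjusted p = 0.0206) though neither hairpin passed against the control. The difference in Pdhb was -0.03 ± 0.10 (edgeR adjusted p = 0.859). G6pdx (edgeR adjusted p = 0.188), Hk2 (0.120) and Pgk1 (0.762) did not pass either.

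Some of these differences were lost when single libraries were left out. Pfkm was lost without any 1 of the 9 libraries, the largest edgeR adjusted p being 0.148 without shRNA-1 replicate 1. The Pfkm difference was also not called with DESeq2 (DESeq2 adjusted p = 0.0557) or with limma-voom (limma-voom adjusted p = 0.0574). Gpi1 was lost without shRNA-1 replicates 1 or 3 or shRNA-2 replicates 2 or 3 (largest edgeR adjusted p 0.101), and Pfkl without shRNA-1 replicates 2 or 3 (0.0956). Pkm was lost without shRNA-1 replicates 1 or 3 or shRNA-2 replicate 3 (largest edgeR adjusted p 0.0878), Pdk1 without shRNA-1 replicates 2 or 3 (0.0813) and Pdha1 without shRNA-1 replicates 1 or 2 (0.0648). Pgls was lost when any shRNA-1 library or shRNA-2 replicate 1 or 3 was left out (largest edgeR adjusted p 0.128).

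Neighbouring genes outside the 40 were read in 9 lists of transporters, regulators and further enzymes, of which 84 genes were tested. With shRNA-1, 15 rose and 12 fell, where 17.4% and 17.3% of all genes did. With shRNA-2, 32 rose and 15 fell, where 24.4% and 24.2% of all genes did. With both hairpins 8 rose, Pdk3, Mpc2, Idh1, Sdhc, Gbe1, Ugp2, Egln1 and Vhl, and 3 fell, Dld, Pck2 and Kdm3a, where 9.24% and 9.57% of all genes did. Beside Pdhb, Dld, the E3 component that pyruvate dehydrogenase shares with other complexes, fell with both, by 0.45 ± 0.11 with shRNA-1 (edgeR adjusted p = 0.00885) and 0.76 ± 0.11 with shRNA-2 (edgeR adjusted p = 1.68e-04) on the log2 scale.

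The kinase gene Pdk3 rose with both hairpins, at 71.3, 71.6 and 69.5 CPM with shRNA-1, 93.3, 121 and 98.2 CPM with shRNA-2 and 43.7, 35.0 and 39.4 CPM in controls. Its log2 fold change was 0.85 ± 0.13 with shRNA-1 (edgeR adjusted p = 8.84e-04) and 1.40 ± 0.13 with shRNA-2 (edgeR adjusted p = 9.55e-06). Mpc2, a subunit of the mitochondrial pyruvate carrier, had log2 fold changes of 0.59 ± 0.13 with shRNA-1 (edgeR adjusted p = 0.00428) and 1.04 ± 0.13 with shRNA-2 (edgeR adjusted p = 5.03e-05). With the share of ribosomal RNA as covariate the shRNA-1 calls of Dld (edgeR adjusted p = 0.144) and Mpc2 (0.195) were lost. The 2 pyruvate dehydrogenase kinases Pdk1 and Pdk3 were called in opposite directions with shRNA-1.

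Of the 9 genes for glucose and lactate transport, 0 were called with shRNA-1, and with shRNA-2 5 rose, Slc2a1, Slc2a3, Slc2a6, Slc2a9 and Bsg, and 0 fell; these were named after their values were seen. Over all genes 34.7% were called with shRNA-1, and with shRNA-2 24.4% rose and 24.2% fell. The best counted of them, Slc16a3, a lactate exporter, was called with neither, and its chaperone Bsg rose with shRNA-2 by 0.68 ± 0.16 on the log2 scale (edgeR adjusted p = 0.00357). Among 12 further TCA and anaplerotic genes, Idh1, cytosolic isocitrate dehydrogenase, rose with both, at log2 fold changes of 0.71 ± 0.12 with shRNA-1 (edgeR adjusted p = 0.00139) and 0.98 ± 0.12 with shRNA-2 (edgeR adjusted p = 6.28e-05). Pck2, mitochondrial phosphoenolpyruvate carboxykinase, fell with both, with -1.17 ± 0.18 for shRNA-1 (edgeR adjusted p = 8.70e-04) and -1.13 ± 0.18 for shRNA-2 (edgeR adjusted p = 3.35e-04). Sdhc, a succinate dehydrogenase subunit, rose with both, with 0.67 ± 0.12 for shRNA-1 (edgeR adjusted p = 0.00186) and 0.49 ± 0.12 for shRNA-2 (edgeR adjusted p = 0.00590). The Sdhc call with shRNA-1 was lost with the share of ribosomal RNA as covariate (edgeR adjusted p = 0.0829), and the call with shRNA-2 was lost with library totals without TMM (0.0672).

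In the further pentose phosphate list of 9 tested genes, 1 rose and 0 fell with shRNA-1, and 3 rose and 2 fell with shRNA-2. Over all genes 17.4% rose and 17.3% fell with shRNA-1, and 24.4% rose and 24.2% fell with shRNA-2. Pgm2, a phosphoglucomutase, rose with shRNA-2 by 0.68 ± 0.12 on the log2 scale (edgeR adjusted p = 5.43e-04) and had a log2 fold change of -0.12 ± 0.12 with shRNA-1 (edgeR adjusted p = 0.469). Prps1, which turns ribose 5-phosphate into the precursor of nucleotides, fell with shRNA-2 by 0.70 ± 0.13 on the log2 scale (edgeR adjusted p = 0.00102) and had a log2 fold change of 0.03 ± 0.13 with shRNA-1 (edgeR adjusted p = 0.896). Tigar, listed in the tables as 9630033F20Rik, which lowers fructose 2,6-bisphosphate, fell with shRNA-2 by 0.52 ± 0.12 (edgeR adjusted p = 0.00377). Adpgk, an ADP-dependent glucokinase, rose with shRNA-1 by 0.85 ± 0.13 (edgeR adjusted p = 8.85e-04) and was not called with shRNA-2, where its log2 fold change was -0.06 ± 0.13 (edgeR adjusted p = 0.746). The test of Adpgk between the hairpins gave 0.90 (edgeR adjusted p = 2.69e-04).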

How the data were processed

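The authors deposited a table of raw counts of reads by gene symbol for every library. Oligo-dT primers started the first cDNA strand and random decamers the other, per the labels' protocols. STAR 2.3.0e, HTSeq 0.6.0 and the build mm10 are named in the submitters' processing notes. The sources used here give neither the strand setting nor the handling of multi-mapping reads, so overlapping genes cannot be told apart. Molecular identifiers are not mentioned there either.

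Entries of the same symbol were summed. filterByExpr by group kept 12663 genes and removed 0.0908% of counts. Libraries were scaled by TMM, and all 9 entered 1 edgeR 4.0.16 fit (R 4.3.3) with the group as the only term, tested by quasi-likelihood with Benjamini-Hochberg adjustment over 12663 genes at 0.05. Levels are TMM-scaled CPM, as mean ± SD over 3 libraries, and fold changes are log2 ± standard error. The pipeline was tested on simulated data. Alternatives included DESeq2 1.42.0, limma-voom (limma 3.58.1), other scalings and filters, covariates and leaving out each library.

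All 40 members, Syncrip and a few genes per neighbouring list were named, these being up to 2 rises and 2 falls of the largest mean size called with both hairpins or, where none was, the 2 with the highest mean. Members and lists were chosen with earlier results of these data known. Lengths and positions came from GENCODE M21 on GRCm38, near-identical copies from blastn 2.17.0 (at least 95% identity over at least 30% of an mRNA), and promoter sequences from RefSeq GRCm38.p6. Aldoa has 2 GENCODE entries and no length here. No replicate pair agreed within sampling noise.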

Additional observations from a re-analysis of the deposited data

Results flagged for a closer look

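For 2 genes the hairpins were called in opposite directions against the same controls, and the difference between the hairpins passed as well. Calls on opposite sides of the same controls all but fix that difference, so its test is not a separate result. Hk1 was -1.02 on the log2 scale with shRNA-1 minus shRNA-2 (edgeR adjusted p = 1.87e-04), with means of 112 CPM for shRNA-1, 227 CPM for shRNA-2 and 168 CPM for controls. Rpia was 1.77 on the log2 scale with shRNA-1 minus shRNA-2 (edgeR adjusted p = 1.25e-06), with means of 165 CPM for shRNA-1, 48.2 CPM for shRNA-2 and 133 CPM for controls. By library totals without TMM, Hk1 was not called with shRNA-2 (edgeR adjusted p = 0.317) nor Rpia with shRNA-1 (0.729). Neither gene was called in opposite directions with the share of ribosomal RNA as covariate, without shRNA-2 replicate 3 or without control replicate 1 or 2. For Hk1 this also held without shRNA-2 replicate 1 and in fits of only the 2 groups compared. For Rpia it also held without any 1 of the shRNA-1 libraries, without control replicate 3 and with no filter on low counts.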

How the results depend on the processing

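Of 120 comparisons of a member, 44 were called, of which 17 held under all 20 settings tried and 2, both of Ldhb, under the 19 that tested it, 20 others passed under some setting, and 0 called values changed sign, while signs changed 96 times for values called in neither fit. Whether same-numbered libraries of different groups shared more than a number was not settled. Their deviations from the group means correlated at -0.13 to 0.34, against -0.42 to 0.29 for differently numbered libraries of different groups. Not every library correlated best with its own number. The replicate block gave 12, 14 and 19 members for shRNA-1, shRNA-2 and shRNA-1 against shRNA-2, and 1 with both hairpins. Leaving out each library gave 4 to 14 members for shRNA-1, 8 to 14 for shRNA-2, 13 to 18 between the hairpins and 0 to 2 for both. The corresponding counts of all genes were 2930 to 5137, 5087 to 6356 and 4030 to 5334.

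Members called with both hairpins numbered 4 with library totals without TMM, where 21.3% of all genes were, and 2 with DESeq2 (19.6%). They numbered 2 with fits of only the 2 groups compared (19.9%) and 0 at an adjusted p under 0.01. At that threshold 3 members were called for shRNA-1, 8 for shRNA-2 and 12 between the hairpins, with 2300 of all genes for shRNA-1 and 3318 between the hairpins. The ribosomal RNA share as covariate left 1 member and 1358 genes called for shRNA-1, and the cause was not tested. With the trend of transcript length taken out, 14, 13 and 19 members were called, where 33.2, 48.9 and 42.2% of all genes were. Depth limits the genes of few counts, Ldhb, Pgam1 and Gapdh, which held 310, 181 and 362 counts over 9 libraries.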

Other observations

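Genes of oxygen sensing outside the 40 were read beside them. Egln1, a prolyl hydroxylase that marks hypoxia-inducible factors for decay, averaged 45.4 CPM with shRNA-1, 67.7 CPM with shRNA-2 and 30.6 CPM in controls, with log2 fold changes of 0.57 ± 0.14 with shRNA-1 (edgeR adjusted p = 0.0105) and 1.14 ± 0.14 with shRNA-2 (edgeR adjusted p = 6.47e-05). Vhl, which recognises the marked factors, averaged 38.6 CPM with shRNA-1, 42.9 CPM with shRNA-2 and 23.4 CPM in controls, and rose with both. Scaled by library totals without TMM, the shRNA-1 call of Egln1 was lost (edgeR adjusted p = 0.193), and with the share of ribosomal RNA as covariate that of Vhl was lost (edgeR adjusted p = 0.112). Of 12 known targets of these factors outside glycolysis, 0 rose and 4 fell with shRNA-1, and 5 rose and 2 fell with shRNA-2, where 17.4% of all genes rose and 17.3% fell with shRNA-1, and 24.4% rose and 24.2% fell with shRNA-2. Kdm3a, a histone demethylase among them, fell with both, by 0.60 ± 0.15 with shRNA-1 (edgeR adjusted p = 0.0110) and 0.64 ± 0.15 with shRNA-2 (edgeR adjusted p = 0.00397) on the log2 scale, and its shRNA-1 call was lost without shRNA-1 replicate 2 (edgeR adjusted p = 0.05003) or control replicate 3 (0.0522), and with the share of ribosomal RNA as covariate, where the log2 fold change was -0.30 (edgeR adjusted p = 0.351).

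In the glycogen list of 8 tested genes, Gbe1, the branching enzyme, had log2 fold changes of 0.50 ± 0.11 with shRNA-1 (edgeR adjusted p = 0.00619) and 0.54 ± 0.11 with shRNA-2 (edgeR adjusted p = 0.00205). Scaled by library totals without TMM the shRNA-1 call of Gbe1 was lost (edgeR adjusted p = 0.121). Ugp2, which makes UDP-glucose, had log2 fold changes of 0.33 ± 0.12 with shRNA-1 (edgeR adjusted p = 0.0463) and 0.30 ± 0.12 with shRNA-2 (edgeR adjusted p = 0.0491). The Ugp2 call with shRNA-1 held only without shRNA-2 replicate 1 or 2, and the call with shRNA-2 only without shRNA-2 replicate 1, among the fits that left out a library, with the largest edgeR adjusted p at 0.1652 for shRNA-1 and 0.124 for shRNA-2.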
